A study of Mus musculus with 16 samples.

Results

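Transcripts typical of the choroid plexus were followed in whole-hippocampus RNA sequencing through 8 genes, Ttr, Folr1, Aqp1, Clic6, Kl, Enpp2, Sostdc1 and Otx2, taken by name from the 55335 genes of the count table. The 8 genes were chosen on their measured levels in these same libraries. Their levels are therefore given as a description, and nothing is supported by their differences between mice. The 16 libraries, 1 hippocampal library per mouse, formed 4 groups of 4. WT mice of the C57BL/6J x 129S1 background received vehicle (WT-D) or the stearoyl-CoA desaturase inhibitor (SCDi) CAY10566, from Cayman (WT-S). 3xTg mice received vehicle (3xTg-D) or the same inhibitor (3xTg-S). The 3xTg model carries human mutant APP and tau transgenes driven by the neuronal Thy1.2 element. All 16 mice were female, 10 months old, and had an intracerebroventricular cannula and pump for 28 days, so that every group, controls included, shared surgery and 0.8% DMSO in artificial cerebrospinal fluid. The inhibitor was infused at 80 µM. The treatment labels and the study's methods name this compound, while the deposited treatment protocol names ab142089, the other inhibitor the study used.

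The choroid plexus is a secretory epithelium on a vascular stroma that hangs in the brain ventricles and makes cerebrospinal fluid. Its epithelial cells move ions and water across their apical face, and secrete carrier proteins into the fluid. The hippocampus borders the lateral ventricle, where this tissue lies next to the fimbria, but hippocampal neurons and glia are not a main source of most of these transcripts. Enpp2 is also made by oligodendrocytes and Kl by some neurons. In bulk tissue, more cells of a type and more RNA per cell cannot be told apart.

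In the annotation of the same genome build (GRCm38), the genes lay on different chromosomes. Folr1 was at chr7:101858331-101870788, Aqp1 at chr6:55336432-55348555 and Clic6 at chr16:92485736-92541243. Kl was at chr5:150952607-150993817, Enpp2 at chr15:54838901-54952892, Sostdc1 at chr12:36314139-36318452 and Otx2 at chr14:48657677-48673819. Exons of Enpp2 shared 345 bases with Gm26684 on the opposite strand, and exons of Otx2 shared 168 bases with Gm49154 on the same strand and 154 bases with Otx2os1 on the opposite strand. The strand setting of the counting is not given in the sources used here, so reads in those bases cannot be assigned with certainty. RefSeq windows of 250 bases before the transcription start (GRCm38.p6) were matched for 3 of the 8 genes, Kl, Aqp1 and Otx2. They are shown because OTX2, a homeobox protein of this epithelium, is known to bind TAATCC. The motif was searched as TAATCC on either strand, which reads GGATTA on the printed strand when it lies opposite, and a match is in capitals.
Kl, chr5:150952357-150952606, plus strand: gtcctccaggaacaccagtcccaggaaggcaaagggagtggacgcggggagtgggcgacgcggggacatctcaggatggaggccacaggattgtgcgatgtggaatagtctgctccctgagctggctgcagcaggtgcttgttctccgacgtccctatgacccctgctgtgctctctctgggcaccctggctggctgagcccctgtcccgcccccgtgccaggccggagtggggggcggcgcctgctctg
Aqp1, chr6:55336049-55336298, plus strand: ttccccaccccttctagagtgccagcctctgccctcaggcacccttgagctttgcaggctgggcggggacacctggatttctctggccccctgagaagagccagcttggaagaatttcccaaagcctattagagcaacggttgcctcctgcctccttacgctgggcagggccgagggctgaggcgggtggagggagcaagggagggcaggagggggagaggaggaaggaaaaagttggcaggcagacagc
Otx2, chr14:48665110-48665359, minus strand: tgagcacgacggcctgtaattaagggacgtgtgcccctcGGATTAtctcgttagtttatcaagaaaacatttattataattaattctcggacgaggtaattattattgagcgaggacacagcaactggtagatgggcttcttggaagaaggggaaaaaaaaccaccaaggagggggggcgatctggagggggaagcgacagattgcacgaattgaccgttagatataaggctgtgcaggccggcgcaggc
A match was present in 1 of the 6 windows of these genes, the printed Otx2 window, where it began 211 bases before the start and lay on the opposite strand. Over all 32851 windows of this length, 2054 (6.25%) held the motif.

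Libraries held 15413385 to 23590149 reads on genes. Expression is given as CPM, reads scaled to library size after TMM normalization. A choroid plexus score was taken for each mouse as the mean log2 CPM of the 8 genes, centred on the mean of the 16 mice. WT-D mouse 4 (score 2.90) and WT-S mouse 1 (score 1.93) stood apart from the other 14 mice, whose scores lay between -1.13 and 0.38. These 2 mice were singled out by the score and are no group of the study. They had different treatments and different replicate numbers. Their depths, 19124838 and 21135765 reads on genes, were inside the range of the others. Their shares of reads outside annotated genes, 12.5% and 10.4%, were also inside the range of 7.82% to 15.1%. Hippocampal neuron markers (Prox1, Wfs1 and 6 others) summed to 853 to 1177 CPM in the 14 mice, and to 1114 and 972 CPM in these 2, so that these markers were present in every library. Single markers left the range. Dsp had 72.1 CPM in WT-D mouse 4 and 29.6 CPM in WT-S mouse 1, against 39.0 to 62.7 CPM. Tdo2 had 6.03 CPM in WT-S mouse 1, against at least 6.15 CPM. Results that rest on these 2 mice are given with and without them.

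Ttr encodes transthyretin, which carries thyroid hormone and retinol-binding protein, and is the signature transcript of this epithelium. Its gene lay at chr18:20665280-20674321. It had 635 CPM in WT-D mouse 4 and 246 CPM in WT-S mouse 1. In the other WT-D mice it had 1.84, 31.7 and 22.0 CPM, and in the other WT-S mice 3.65, 2.59 and 3.18 CPM. It had 3.85, 4.95, 13.4 and 1.37 CPM in the 3xTg-D mice and 4.04, 5.03, 1.71 and 0.742 CPM in the 3xTg-S mice. The highest library was thus 169-fold and the next 65.7-fold above the median of the other 14 (3.75 CPM). The 14 mice themselves spanned 0.742 to 31.7 CPM, with WT-D mice 2 and 3 and 3xTg-D mouse 3 at their upper end. No pair of groups was free of overlap.

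**Figure D1:**
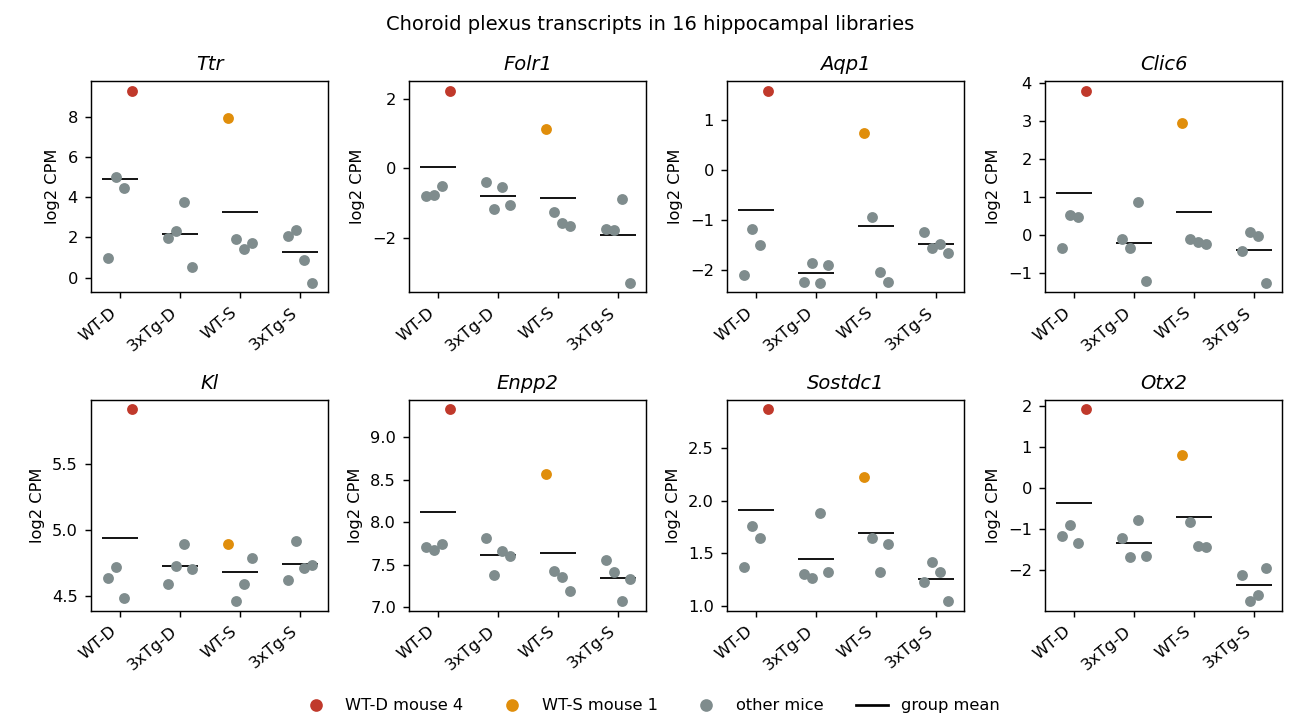
log2 CPM (prior count 2) of the 8 transcripts in each of the 16 mice, by group, with a line at the group mean of 4 mice. WT-D mouse 4 is the highest mouse for all 8 transcripts, and WT-S mouse 1 is above the other 14 for 7 of them, Kl being the exception.

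Folr1, the folate receptor that passes folate into the cerebrospinal fluid, had 4.62 CPM in WT-D mouse 4 and 2.07 CPM in WT-S mouse 1. Of the rest, the WT-D mice had 0.472, 0.482 and 0.596 CPM and the other WT-S mice 0.313, 0.231 and 0.215 CPM. The 3xTg-D mice had 0.660, 0.342, 0.588 and 0.382 CPM and the 3xTg-S mice 0.192, 0.190, 0.443 and 0 CPM. The 4 WT-D mice were all above the 4 3xTg-S mice, but the 14 lower mice had at most 12 reads each. The count of 0 in 3xTg-S mouse 4 allows up to 0.159 CPM by the limit of 3 reads, and 0.196 CPM by the upper bound of the exact 95% Poisson interval (3.69 reads).

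Aqp1, the water channel of the apical membrane, had 2.90 CPM (57 reads) in WT-D mouse 4 and 1.55 CPM (33 reads) in WT-S mouse 1. WT-D mice 1 to 3 had 0.129, 0.337 and 0.248 CPM and the other WT-S mice 0.417, 0.139 and 0.108 CPM. The other 14 mice had 2 to 8 reads each, with a median of 0.191 CPM. The 3xTg-S mice (0.320, 0.237, 0.253 and 0.212 CPM) were all above the 3xTg-D mice (0.110, 0.171, 0.107 and 0.164 CPM), the opposite order to Otx2 below. Counts this low leave Aqp1 near the limit of detection in every mouse but those 2.

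Clic6, an intracellular chloride channel protein abundant in secretory epithelia, had 13.8 CPM in WT-D mouse 4 and 7.58 CPM in WT-S mouse 1. The other WT-D mice had 0.686, 1.35 and 1.29 CPM, and the other WT-S mice 0.834, 0.785 and 0.754 CPM. It had 0.824, 0.683, 1.71 and 0.328 CPM in the 3xTg-D mice and 0.641, 0.949, 0.886 and 0.318 CPM in the 3xTg-S mice. Among the lower 14, its highest values fell in 3xTg-D mouse 3 and WT-D mice 2 and 3, the same 3 mice that led for Ttr.

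Kl encodes klotho, a coreceptor for FGF23 that is shed into the cerebrospinal fluid. It had 60.5 CPM in WT-D mouse 4, 2.33-fold above the median of the other 14 (26.0 CPM). The other WT-D mice had 24.7, 26.3 and 22.2 CPM, and the 3xTg-D mice 24.0, 26.4, 29.7 and 25.9 CPM. The WT-S mice had 29.7, 21.9, 23.9 and 27.5 CPM and the 3xTg-S mice 24.4, 30.1, 26.0 and 26.5 CPM. WT-S mouse 1, at 29.7 CPM, lay inside the range of the 14 (21.9 to 30.1 CPM). Kl was thus the single gene of the 8 that did not mark both mice.

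Enpp2 encodes autotaxin, the secreted enzyme that makes lysophosphatidic acid. It had 643 CPM in WT-D mouse 4 and 379 CPM in WT-S mouse 1. The other WT-D mice had 210, 204 and 213 CPM and the other WT-S mice 172, 163 and 147 CPM. The 3xTg-D mice had 225, 167, 202 and 193 CPM and the 3xTg-S mice 187, 171, 134 and 160 CPM. The fold over the median of the 14 (180 CPM) was 3.57 and 2.11, far below that of Ttr, on a much higher base. Summed mature oligodendrocyte markers, which include Mbp and Mobp, were 5384 and 5427 CPM in the 2 mice, inside the range of the other 14 (3568 to 7096 CPM).

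Sostdc1, a secreted antagonist of BMP and Wnt signalling, had 7.21 CPM in WT-D mouse 4 and 4.57 CPM in WT-S mouse 1. The other WT-D mice had 2.49, 3.28 and 3.03 CPM and the other WT-S mice 3.02, 2.40 and 2.91 CPM. The 3xTg-D mice had 2.36, 2.31, 3.58 and 2.40 CPM and the 3xTg-S mice 2.24, 2.56, 2.41 and 1.96 CPM. The highest of these 14 was again 3xTg-D mouse 3.

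Otx2, the transcription factor of the set, had 3.71 CPM (73 reads) in WT-D mouse 4 and 1.65 CPM (35 reads) in WT-S mouse 1. The other WT-D mice had 0.343, 0.434 and 0.298 CPM and the other WT-S mice 0.469, 0.277 and 0.269 CPM. The 3xTg-D mice had 0.330, 0.214, 0.481 and 0.218 CPM. The 3xTg-S mice had 0.128, 0.0475, 0.0633 and 0.159 CPM, and all 4 lay below the 12 mice of the other groups. These values rest on 2, 1, 1 and 3 reads, and a count of 1 has an exact 95% Poisson interval of 0.0253 to 5.57 reads. The interval covers counting error only.

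On a scale per length (RPKM, CPM per kilobase of exon), the order of the levels was not the same in the 2 mice and in the rest. In the median of the 14 mice, Enpp2 led at 31.1 RPKM, followed by Ttr (3.16), Kl (2.78) and Sostdc1 (1.37). Ttr spanned 0.626 to 26.8 RPKM in these mice, which covered the whole ranges of Kl (2.35 to 3.23) and Sostdc1 (1.10 to 2.01), so that Ttr could not be placed against either, while Kl lay above Sostdc1 in every mouse. The highest Ttr value also reached into the range of Enpp2 (23.3 to 38.9). Clic6 (0.206), Folr1 (0.158), Aqp1 (0.0729) and Otx2 (0.0647) came last, all below Sostdc1 and each overlapping its neighbour. In WT-D mouse 4, Ttr led at 535 RPKM, ahead of Enpp2 at 111 RPKM, and in WT-S mouse 1 Ttr had 208 and Enpp2 65.7 RPKM.

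The excess of each transcript over the median of the 14 mice was compared between the 2 mice. For 7 of the 8 genes the excess in WT-D mouse 4 was 1.92 to 2.60 times that in WT-S mouse 1, with Clic6 at the lower and Ttr at the upper end. Kl stood outside this range at 9.31. These values chose the genes and the mice, so nothing is read from them.

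Joint variation was uneven across the pairs of genes in the remaining 14 mice. A correlation over all 16 would rest on the 2 mice apart, so the pairs were compared within the 14, with group means removed, as a description. Over the 28 pairs the median Pearson r was 0.21, with a lowest value of -0.43 (Aqp1 and Kl) and a highest of 0.83 (Ttr and Clic6). An r above 0.5 was found in 4 pairs, those of Ttr with Clic6 and with Sostdc1 (0.75), of Clic6 with Sostdc1 (0.81) and of Folr1 with Clic6 (0.64). An r below 0 was found in 5 pairs. Against the mean of the other 7 genes, Clic6 (0.85), Sostdc1 (0.82) and Ttr (0.77) had the highest r, and Kl (0.09), Enpp2 (0.18) and Otx2 (0.19) the lowest. Within groups, the SD of log2 CPM over the 14 mice was 1.21 for Ttr but 0.12 for Kl and 0.14 for Enpp2. For Sostdc1, which correlated with Ttr and Clic6 (SD 0.54), it was 0.19, so that its high r did not go with a large spread. Ttr and Clic6 themselves had the largest SDs of the 8 genes. Folr1, Aqp1 and Otx2 had at most 12, 8 and 9 reads in these mice, and genes of 1 library share its depth.

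**Figure D2:**
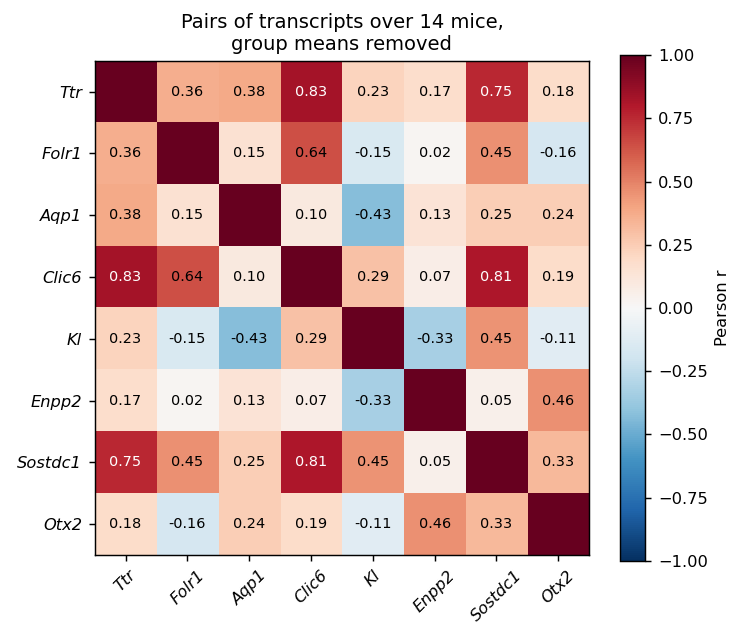
Pearson r of each pair of the 8 transcripts over the 14 mice other than WT-D mouse 4 and WT-S mouse 1, from log2 CPM with group means removed. The block of Ttr, Clic6 and Sostdc1 has r of 0.75 to 0.83, while Kl has negative values with Aqp1, Enpp2, Folr1 and Otx2.

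How far other genes followed the score was asked in all 16 mice, with group in the model, by edgeR's quasi-likelihood test of the slope on the score. Of 16469 genes outside the 8, 7 passed a Benjamini-Hochberg adjusted threshold of 0.05 with a positive slope (0.0425%), namely F5, Ecrg4, Cldn2, Ace, Prlr, Trpv4 and Col9a3. None had a negative slope at that threshold by edgeR or by DESeq2, while 142 negative slopes had an unadjusted p below 0.05. All 7 belong to a list of 50 other choroid plexus epithelium genes, 35 of which passed the filter on low counts. Because the list was drawn up with earlier results of these data known, its count is not independent evidence.

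F5, coagulation factor V, had the steepest slope of these 7, 1.15 log2 units per unit of score (SE 0.10, edgeR adjusted p = 2.49e-05). It had 17.4 CPM in WT-D mouse 4 and 8.90 CPM in WT-S mouse 1, against 0.475 to 2.51 CPM in the other 14 (median 1.04 CPM). Ecrg4, a secreted peptide precursor, had a slope of 0.93 (SE 0.11, edgeR adjusted p = 0.000665). Its level was 7.47 and 3.86 CPM in the 2 mice, against 0.316 to 1.62 CPM in the others. Cldn2, the pore-forming claudin of leaky epithelia, had a slope of 1.09 (SE 0.16, edgeR adjusted p = 0.0115). It had 4.42 and 1.93 CPM in the 2 mice, against 0.128 to 0.962 CPM.

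Ace, angiotensin-converting enzyme, had a slope of 0.36 (SE 0.06, edgeR adjusted p = 0.0186), with 19.97 and 14.3 CPM in the 2 mice against 6.51 to 10.2 CPM. Prlr, the prolactin receptor, had a slope of 0.52 (SE 0.08, edgeR adjusted p = 0.0195), with 22.4 and 9.32 CPM against 4.22 to 7.37 CPM. Trpv4, an osmosensitive calcium channel, had a slope of 0.66 (SE 0.11, edgeR adjusted p = 0.0264), with 2.95 and 1.60 CPM against 0.159 to 0.858 CPM. For Col9a3, a collagen chain (slope 0.34, SE 0.06, edgeR adjusted p = 0.0264), only WT-D mouse 4 at 17.4 CPM was above the 14 mice (6.41 to 11.02 CPM), and WT-S mouse 1 had 8.99 CPM. In 6 of the 7 genes, then, both mice lay above all others.

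These slopes rested on the 2 mice. Without both of them no gene outside the 8 had a positive slope at the adjusted threshold, and 1, Gbp2b, had a negative slope. The slopes of Ace (-0.03) and Prlr (-0.09) then changed sign. Leaving out WT-D mouse 4 alone left F5 as the only one of the 7, beside a negative slope of A830036E02Rik, and leaving out WT-S mouse 1 left F5, Ecrg4 and Col9a3.

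The 20 genes with the smallest p and a positive slope included 13 of the epithelium list. Beyond the 7, these were Col8a1, Col8a2, Slc2a12, Cldn1, Slc4a2 and Kcnj13 with slopes of 0.15 to 1.02 and edgeR adjusted p of 0.121 to 1. Kcnj13, the apical potassium channel Kir7.1, had 5.39 and 3.96 CPM in the 2 mice, against 0 to 1.62 CPM in the others. The 7 not on the list were Gm44250, Drc7, Zfp264, Gm15494, Steap2, Rbm47 and Zfp9, none past the adjusted threshold. The 5 leading negative slopes were those of Pop4, Cgas, 4933429H19Rik, Zfp772 and Gm45844, at -0.20 to -0.46 with edgeR adjusted p of 1. The 10 genes most alike to the score by Pearson r of group-centred log2 CPM over the 16 mice were F5 (0.93), Ecrg4 (0.90), Ace (0.87), Trpv4 (0.86), Col9a3 (0.85), Prlr (0.84), Cldn2 (0.81), Zfp248 (0.81), Gm44250 (0.79) and Slc2a12 (0.78). Over the 14 mice alone their r with the score ranged from -0.17 for Prlr to 0.48 for Col9a3.

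Genes were also counted without a model. Over all genes the numbers above and below were close, unlike the slope test, and no chance level was computed for them. Both mice were above all 14 others for 111 of the 16469 genes outside the 8 (0.674%), and below all of them for 83 (0.504%). Of the 35 genes of the epithelium list among these 16469, 16 were above all 14 in both mice. With the 15 list genes that did not pass the filter the count was 25 of 50 above and 0 below. A total of 21 genes were above all 14 and at least 2-fold over their median in both mice. Of these, 9 were on the list (Ecrg4, Kcnj13, F5, Abca4, Col8a2, Trpv4, Oca2, Col8a1 and Cldn2). Among those not on it, picked after their values were seen, were Col4a3, a basement membrane collagen chain (1.78 and 0.942 CPM against at most 0.643), and Lepr, the leptin receptor (4.62 and 3.96 CPM against at most 3.55). The median log2 fold over all genes outside the 8 was -0.00669 in WT-D mouse 4 and -0.00468 in WT-S mouse 1.

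**Figure D3:**
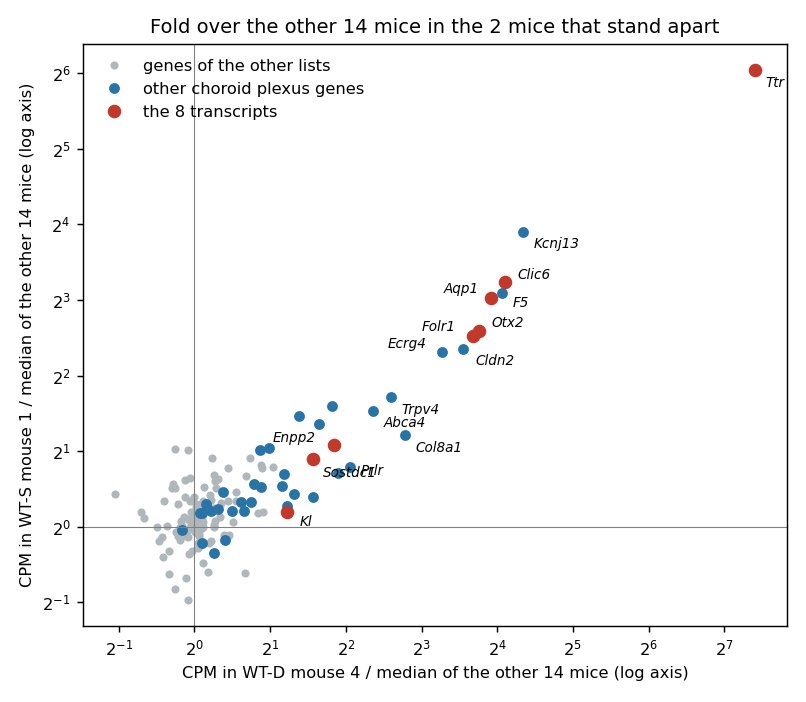
CPM in WT-D mouse 4 (x axis) and WT-S mouse 1 (y axis), each divided by the median of the other 14 mice, on log axes, for the 8 transcripts, the genes of the other choroid plexus epithelium list and the genes of the other lists. Ttr is at 169 and 65.7, F5 at 16.7 and 8.55, and Kl at 2.33 and 1.14.

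Summed markers of other cell types and of neighbouring regions stayed within the range of the 14 mice. Summed ependymal and motile cilia genes (17, among them Foxj1) had 63.4 and 77.9 CPM in the 2 mice, inside the range of the other 14 (39.8 to 81.8 CPM). Stromal and meningeal genes (14, among them Dcn and Col1a1) had 111 and 146 CPM, inside 76.5 to 209 CPM. Brain endothelial genes (9, among them Cldn5) had 196 and 211 CPM, inside 165 to 242 CPM. Red blood cell genes (5, among them Hbb-bs) had 38.4 and 30.6 CPM, inside 15.9 to 124 CPM. Thalamic and habenular genes (10, among them Tcf7l2) had 69.9 and 71.6 CPM, inside 55.7 to 83.9 CPM, and striatal genes (8, among them Drd1) 65.2 and 69.2 CPM, inside 54.9 to 73.2 CPM. No gene of these lists was at 0 in all mice, and 1 of the 17 ependymal genes, Dynlrb2, was above all 14 in both mice. In WT-S mouse 1 only, Ccdc153 (7.06 CPM against at most 6.05), Rsph1 (6.22 against 6.06) and Rsph4a (10.6 against 9.73) were also above all 14. The sums thus do not speak for each gene. Only the other choroid plexus epithelium list left its range, with 468 and 369 CPM against 254 to 308 CPM.

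**Figure D4:**
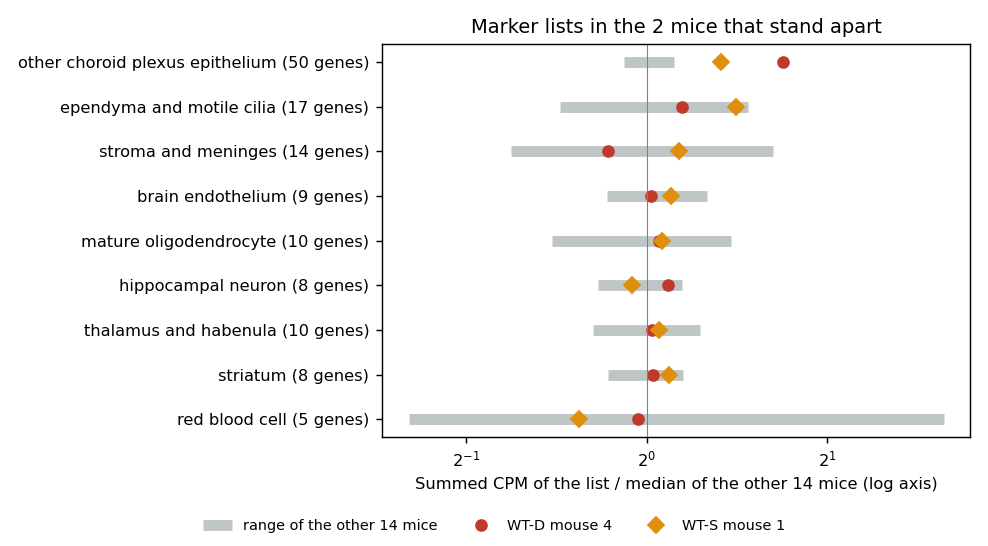
Summed CPM of 9 marker lists in WT-D mouse 4 and WT-S mouse 1, divided by the median of the other 14 mice, on a log axis, with a bar for the range of the 14. Both mice are outside the bar for the other choroid plexus epithelium list only.

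In the slope test, the epithelium list had 7 of 35 genes past the adjusted threshold, 18 at an unadjusted p of 0.01 or less, all positive, and a median slope of 0.29, against -0.00 over all genes. Of all 16469 genes outside the 8, 48 had an unadjusted edgeR p of 0.01 or less, 35 of them with a positive slope. An unadjusted edgeR p below 0.05 was found for 290 of the 16469. In the 8 other cell type lists no gene passed the adjusted threshold by edgeR or DESeq2. At an unadjusted p below 0.05 there were 2 of 16 ependymal genes (Dynlrb2 at 0.24 and Ccdc153 at 0.21), 1 of 9 endothelial genes (Slco1c1 at 0.06) and none of the stromal, oligodendrocyte, neuronal, thalamic, striatal or red blood cell genes. All 10 oligodendrocyte genes had positive slopes, with a median of 0.07 and Mobp at 0.11. None of these 10 passed an unadjusted p of 0.05.

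The pathways of the 8 genes were read from their other members, by the same edgeR slope test. The background is again 48 of 16469 genes at an unadjusted p of 0.01 or less and 290 below 0.05. In ion and water transport, 2 of 10 other genes had an unadjusted p of 0.01 or less, Slc4a2, an anion exchanger (slope 0.15, SE 0.04), and Kcnj13 (1.02, SE 0.28). Slc12a2, the NKCC1 cotransporter (0.07, SE 0.03), and Car12, a carbonic anhydrase (0.11, SE 0.06), were shallower. In retinoid, thyroid hormone and folate transport, 1 of 12 reached that p, the retinol dehydrogenase Rdh5 (0.34, SE 0.11), while the thyroid hormone receptor Thra had a slope of -0.05 (SE 0.04). Among Wnt and BMP antagonists and ligands, 0 of 12 had p below 0.05, with Sfrp2 at 0.13 (SE 0.11) and Lrp5 at -0.06 (SE 0.05). The same was true of 0 of 5 klotho and FGF receptor genes, with Fgfr2 at 0.06 (SE 0.04), and 0 of 7 lysophosphatidic acid genes, with the receptor Lpar1 at 0.11 (SE 0.07). No gene of these 5 lists outside the 8 passed the adjusted threshold by edgeR or DESeq2.

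The study's groups were compared pairwise. Because the 8 genes were chosen on their levels in these same libraries, their values here are a description. They do not test what the genotype or the inhibitor changed. Of the 8 genes, 6 passed the filter on low counts, and Aqp1 and Otx2 did not. No member passed an edgeR adjusted p of 0.05 in any of the 5 comparisons or in the interaction, at backgrounds of 1.85% of 16475 genes in 3xTg-D vs WT-D, 0% in WT-S vs WT-D, 0% in 3xTg-S vs 3xTg-D, 1.4% in 3xTg-S vs WT-S, 1.58% in 3xTg-S vs WT-D and 0% for the genotype by treatment interaction. Over all genes, DESeq2 called 2, 0 and 1 in those with 0%. DESeq2 called none of the members to which it gave a p. In every comparison but 3xTg-S vs 3xTg-D it gave no p for 2 or 3 of the 6, so that it could not call them. In the pairwise comparisons these were Ttr and Clic6, and also Folr1 except in 3xTg-S vs WT-S. At an unadjusted p below 0.05, edgeR had 2, 0, 0, 3, 5 and 0 of the 6 in the same order, where 12.6%, 2.25%, 6.33%, 10.7%, 13.1% and 4.98% of all tested genes had such a p. All comparisons with WT-D share WT-D mouse 4, and both with WT-S share WT-S mouse 1.

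In 3xTg-D vs WT-D, Ttr was the only member at the unadjusted p of 0.01 used by the study (background 4.91%), with a log2 fold change of -4.89 (SE 1.49, edgeR adjusted p = 0.178). Clic6 had -2.27 (SE 0.94), Folr1 -1.64 (SE 0.79), Enpp2 -0.70 (SE 0.35), Sostdc1 -0.59 (SE 0.33) and Kl -0.34 (SE 0.28). Without WT-D mouse 4, Ttr had -1.66 (SE 0.83, edgeR adjusted p = 0.553), Clic6 -0.33, Folr1 -0.09, Enpp2 -0.10, Sostdc1 -0.15 and Kl 0.11. None of the 8 separated the groups (8.41% of all tested genes did, Aqp1 and Otx2 not being among those tested).

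In WT-S vs WT-D, no member reached an unadjusted p of 0.01 (background 0.188%), with Ttr at -1.42 (SE 1.63) and the other 5 at -0.30 to -1.08. The direction depended on which mouse was left out. Without WT-D mouse 4 alone all 6 were above 0, with Ttr at 1.80 (SE 1.53), Clic6 at 1.19 (SE 0.84) and Folr1 at 0.48 (SE 0.77). Without WT-S mouse 1 alone all 6 were below 0, with Ttr at -5.79 (SE 1.83), Folr1 at -2.57 (SE 0.99) and Clic6 at -2.42 (SE 1.05), each at an edgeR adjusted p of 1. With the replicate number as a block Ttr had -2.57 (SE 2.14). Without WT-D mouse 4 and WT-S mouse 1, Enpp2 had -0.38 (SE 0.08, edgeR adjusted p = 0.999) and Ttr -2.57 (SE 0.80, edgeR adjusted p = 0.999). None of the 8 separated the groups (1.49% of all tested genes).

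In 3xTg-S vs 3xTg-D, which holds neither of the 2 mice, no member reached an unadjusted p of 0.01 (background 0.904%). Folr1 had -1.24 (SE 0.60), Ttr -0.99 (SE 0.65), Clic6 -0.30 (SE 0.48), Enpp2 -0.24 (SE 0.12), Sostdc1 -0.18 (SE 0.19) and Kl 0.05 (SE 0.09). Without 3xTg-D mouse 3, Ttr had -0.21 (SE 0.58), Clic6 0.21 (SE 0.44) and Sostdc1 -0.01 (SE 0.18). Groups did not overlap for 2 of the 8, Otx2 being lower and Aqp1 higher in 3xTg-S, against 3.16% of all tested genes. Neither of these 2 is among the tested genes, here or where such a share stands beside Otx2 below, since their counts were too low.

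In 3xTg-S vs WT-S, no member reached an unadjusted p of 0.01 (background 4.26%). Ttr had -4.45 (SE 1.51, edgeR adjusted p = 0.275), and -0.11 (SE 0.51) without WT-S mouse 1. Clic6 moved likewise from -1.83 (SE 0.80) to -0.17 (SE 0.37) and Folr1 from -1.81 (SE 0.92) to -0.33 (SE 0.73). Sostdc1 went from -0.48 (SE 0.22) to -0.27 (SE 0.19), Enpp2 from -0.39 (SE 0.27) to 0.03 (SE 0.12) and Kl from 0.07 (SE 0.11) to 0.14 (SE 0.11). Only Otx2 separated the groups (6.59% of all tested genes).

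In 3xTg-S vs WT-D, Ttr had -5.88 (SE 1.60, edgeR adjusted p = 0.115) and was the single member at an unadjusted p of 0.01 (background 5.69%). Folr1 had -2.90 (SE 1.00), Clic6 -2.59 (SE 0.95), Enpp2 -0.95 (SE 0.35), Sostdc1 -0.79 (SE 0.32) and Kl -0.31 (SE 0.28). Without WT-D mouse 4, Ttr had -2.67 (SE 0.82, edgeR adjusted p = 0.205) and Enpp2 -0.35 (SE 0.10, edgeR adjusted p = 0.186). Folr1 then had -1.34 (SE 0.65), Clic6 -0.65 (SE 0.40), Sostdc1 -0.35 (SE 0.18) and Kl 0.14 (SE 0.09). Without WT-D mouse 1, which had the lowest Ttr of its group, Ttr passed the adjusted threshold (edgeR adjusted p = 0.0478). Groups did not overlap for 3 of the 8, Folr1, Enpp2 and Otx2, all lower in 3xTg-S, against 8.83% of all tested genes. Otx2 alone of the 8 separated 3xTg-S from all 12 mice of the other groups (0.571% of all tested genes did).

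For the genotype by treatment interaction, no member reached an unadjusted p of 0.01 (background 0.595%), and log2 estimates ran from -0.16 (SE 1.26) for Folr1 to 0.46 (SE 1.42) for Clic6. Ttr had 0.46 (SE 2.39). It had 4.81 (SE 2.10) without WT-S mouse 1, -2.79 (SE 1.98) without WT-D mouse 4 and 1.57 (SE 1.15) without both. Clic6 had 2.12 (SE 1.27), -1.50 (SE 1.09) and 0.16 (SE 0.65) in the same order, so that the sign turned with the mouse left out.

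**Figure D5:**
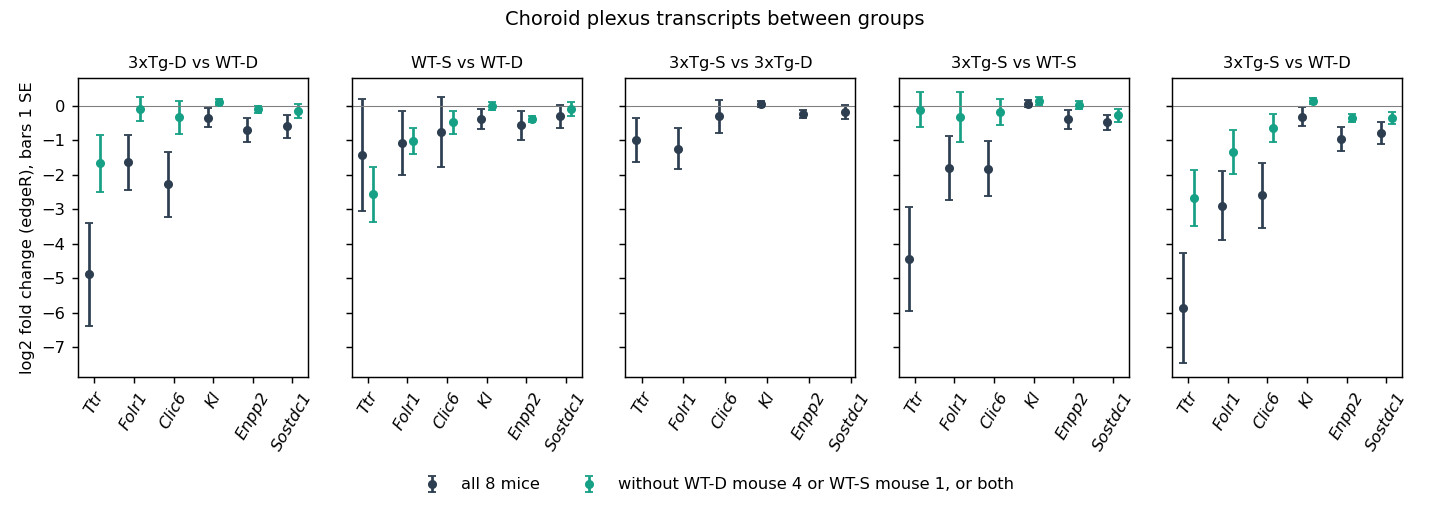
edgeR log2 fold changes of the 6 tested transcripts in the 5 comparisons, with bars of 1 SE, for all 8 mice of a comparison and without WT-D mouse 4 and WT-S mouse 1 where it holds them. Ttr moves from -4.89 to -1.66 in 3xTg-D vs WT-D and from -4.45 to -0.11 in 3xTg-S vs WT-S, while Kl stays between -0.37 and 0.14.

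The other 35 tested genes of the epithelium list were read in the same comparisons. In 3xTg-S vs WT-D, 2 of them passed the edgeR adjusted threshold (1.58% of all tested genes did), and DESeq2 called 5 (3.5%). Calml4, a calmodulin-like protein, fell by 1.59 on the log2 scale (SE 0.30, edgeR adjusted p = 0.0276), from 1.11 to 2.18 CPM in WT-D to 0.380 to 0.705 CPM in 3xTg-S. Lbp, the lipopolysaccharide-binding protein, fell by 1.97 (SE 0.37, edgeR adjusted p = 0.0286), from 2.79 to 8.15 CPM to 0.901 to 1.67 CPM. Without WT-D mouse 4 the values were -1.43 and -1.86, both at an edgeR adjusted p of 0.0749. In 3xTg-S vs 3xTg-D, which holds neither mouse apart, the same genes had -1.35 (SE 0.27) and -0.91 (SE 0.25), each at an edgeR adjusted p of 0.722. Their groups did not overlap, as was true of 3.16% of all tested genes. For Lbp the gap was narrow, with a lowest 3xTg-D value of 1.69 CPM and a highest 3xTg-S value of 1.67 CPM. How many other genes of the list separated these groups was not counted. Of the 35, 33 were lower in 3xTg-S vs WT-D, with a median of -0.50 against -0.00454 over all genes, and -0.31 without WT-D mouse 4. In 3xTg-D vs WT-D 30 were lower (median -0.38, and -0.10 without that mouse), in WT-S vs WT-D 32 (-0.28, and -0.19 without both mice), in 3xTg-S vs WT-S 27 (-0.21, and -0.08 without WT-S mouse 1) and in 3xTg-S vs 3xTg-D 22 (-0.11). No gene of the list passed the adjusted threshold in these 4 comparisons or the interaction by edgeR or DESeq2. At an unadjusted p below 0.05 by edgeR there were 7, 0, 7, 9 and 1 of the 35. Over all tested genes the shares were 12.6%, 2.25%, 10.7%, 6.33% and 4.98% in the same order. In 3xTg-S vs WT-D there were 14 of the 35, against 13.1%. The list was drawn up with earlier results of these data known, so these counts are not independent evidence.

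The score was also taken as a covariate in the comparisons of groups, which costs a degree of freedom. The score also differed between groups. In 3xTg-S vs WT-D the lowest WT-D score (-0.439) was above the highest 3xTg-S score (-0.457). Score and group therefore cannot be fully told apart there, and a drop in calls does not measure RNA removed. Genes at the edgeR adjusted threshold went from 305 to 190 in 3xTg-D vs WT-D, of which 169 were shared, from 230 to 110 in 3xTg-S vs WT-S (103 shared) and from 261 to 135 in 3xTg-S vs WT-D (108 shared). Leaving out the mice apart gave 199 (184 shared), 135 (125 shared) and 182 (157 shared). Leaving out any 1 mouse of a comparison gave 159 to 300, 120 to 316 and 136 to 606 genes. The lowest count of each range came without a mouse that does not stand apart. With the covariate, the 190 genes lay inside the first range, and the 110 and 135 lay below the lowest count of theirs. The part of choroid plexus RNA in the drop was not tested.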

How the data were processed

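Hippocampal mRNA of 16 mice, 4 per group, was sequenced in single-end libraries. The authors deposited raw gene counts. The submitters' processing notes name Trimmomatic 0.35 and STAR 2.5.1b, with reads on GRCm38 and Gencode annotation. Strand and UMI handling of the counting are not given in the sources used here, and 4 alignment summary lines were left out of library sizes. Counts were tested with edgeR 4.0.16 (R 4.3.3, quasi-likelihood, TMM, filterByExpr with a minimum count of 10 and total of 15, prior count 2 for log2 CPM), which kept 16475 genes. P-values were adjusted by Benjamini-Hochberg over all of them and called at 0.05, beside the unadjusted 0.01 of the study. DESeq2 1.42.0 was an alternative. Steps were tested on simulated data.

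The members and lists were chosen with earlier results of these data known. Named were the 8 members, the 20 smallest p with a positive slope on the score and the 5 with a negative slope, the 10 genes most alike to the score, and up to 4 genes per list. RPKM used exon lengths of a Gencode annotation, and promoter windows came from RefSeq. The labels number replicates 1 to 4 in each group. Same-numbered mice met the rule for pairs where every correlation of their deviations exceeded 0.1. This held for WT-S vs WT-D only (0.114 to 0.34, 4 of 4 pairs). The main fits were unpaired in every comparison, that one included, and the replicate block was an alternative. P-values measure the spread between mice. Alternatives changed the normalization, filter, tool, score, group terms, replicate block and each left-out mouse, and, chosen after seeing the data, left out both mice that stand apart. Some items of the strain and marker descriptions are not reported here.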

Additional observations from a re-analysis of the deposited data

Results flagged for a closer look

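In 14 of the 32 combinations of gene and group, the highest mouse lay farther from its nearest neighbour than Dixon's 95% limit for 4 values. Chance flags about 1 in 20 groups, and the combinations are not independent, since 13 of the 14 concern WT-D mouse 4 or WT-S mouse 1, whose levels also led to the choice of the 8 genes. For WT-D mouse 4 these were Ttr (635 CPM), Kl (60.5 CPM), Folr1 (4.62 CPM), Aqp1 (2.90 CPM), Clic6 (13.8 CPM), Enpp2 (643 CPM), Otx2 (3.71 CPM) and Sostdc1 (7.21 CPM). For WT-S mouse 1 they were Ttr (246 CPM), Folr1 (2.07 CPM), Clic6 (7.58 CPM), Enpp2 (379 CPM) and Otx2 (1.65 CPM). The remaining value was Sostdc1 in 3xTg-D mouse 3 (3.58 CPM), the mouse that also led its group for Ttr and Clic6.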

How the results depend on the processing

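The 7 genes that followed the score were the same 7 with RLE size factors, with a score without Ttr, without Enpp2 or from standardized values, and DESeq2 called 9, these 7 included. The count became 17 with no filter on low counts (15 positive and 2 negative slopes), 2 with a score from Ttr alone, 12 with no group terms and 48 at an unadjusted p of 0.01. Leaving out 1 mouse gave 2 to 9, with 4 without WT-D mouse 3 or WT-S mouse 3. Without both mice apart it was 1, a negative slope, and the slopes of Ace (-0.0286) and Prlr (-0.0899) reversed. Members called went from 0 to 1 in 3xTg-D vs WT-D (Ttr) and to 2 in both 3xTg-S vs WT-S and 3xTg-S vs WT-D (Ttr and Otx2) with no filter on low counts. In 3xTg-S vs WT-D, leaving out 1 mouse gave 0 to 1. With the score as a covariate, genes called were 190, 110 and 135 in place of 305, 230 and 261. The causes were not tested. The median r over pairs in the 14 mice was 0.15 to 0.272 with 1 mouse left out.

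With the replicate block, 5 genes followed the score (Ace, Cldn2, Ecrg4, F5 and Prlr), and members called stayed at 0 in every comparison. Over all genes the block gave 204 calls against 0 in 3xTg-S vs 3xTg-D and 517 against 230 in 3xTg-S vs WT-S, where the numbers did not meet the pairing rule. Depth limits Folr1, Aqp1 and Otx2, which had at most 12 reads in 14 of the 16 mice.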
